A study of Danio rerio with 12 samples.

Results

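The 4 genes described here encode proteins of the nucleolus: nucleolin (ncl, ENSDARG00000002710), nucleophosmin (npm1a, ENSDARG00000014329), dyskerin (DKC1, ENSDARG00000016484) and the RNA helicase DDX21 (ENSDARG00000063626). They were taken by name from the 33737 gene identifiers of a table of raw counts and were selected on their measured levels at the 4 stages of fin regeneration, so their differences between stages are described and not tested. The libraries hold polyadenylated RNA of caudal fins from adult zebrafish (Danio rerio, strain AB-Tu, aged 8 to 18 months, with no genetic change or drug named in the labels). Stages are counted in days post amputation (dpa): fins were taken uncut, called 0 dpa, or at 2, 3 and 10 dpa, with 3 libraries per stage and 12 in all, each from a pool of 6 fish. The labels leave unsaid if any fish gave tissue at more than 1 stage.

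The nucleolus is the part of the nucleus where RNA polymerase I transcribes ribosomal RNA and where that RNA is cut, modified and joined with ribosomal proteins into the small and large ribosomal subunits. Nucleolin binds ribosomal DNA and the nascent transcript, and nucleophosmin is a chaperone of the outer, granular layer where the large subunit matures. Dyskerin is the pseudouridine synthase of the box H/ACA particles, which convert chosen uridines of ribosomal RNA, and it is also a subunit of telomerase. DDX21 belongs to the DEAD-box helicases, which remodel RNA and RNA-protein complexes, and it takes part in ribosomal RNA transcription and processing. Growing and dividing cells make ribosomes at a high rate, and a cut fin regrows from the blastema, a mass of dividing cells under a wound epidermis.

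Total counts per library ran from 8833337 to 22843743, and 16612 genes passed the filter on low counts. Levels are given in CPM (counts per 1000000 counts of the library, scaled by TMM), as mean ± SD over n = 3 libraries, and log2 changes ± SE are estimates of edgeR over all 12 libraries. Because CPM depends on transcript length, levels are compared only within a gene. No library was a repeat of another: chi-square per degree of freedom between replicates was 17.8 to 113. At 2 dpa replicate 2 differed most from the others (113 and 89.8, against 39.6 between those). The same held at 3 dpa (55.7 and 53.2, against 17.8) and at 10 dpa (65.2 and 37.9, against 23.7). This statistic also grows with total counts, so it is no plain measure of distance.

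Among the 4 genes nucleophosmin showed the largest upward difference from the uncut fin. In the uncut fin npm1a stood at 23.4, 16.6 and 25.8 CPM in replicates 1, 2 and 3. At 2 dpa it stood at 71.25, 116 and 78.2 CPM, at 3 dpa at 66.4, 70.2 and 52.0 CPM, and at 10 dpa at 25.3, 26.1 and 23.0 CPM. Every 2 and 3 dpa library lay above every 0 and 10 dpa library, and the 0 and 10 dpa libraries overlapped. The stage means were 21.96 ± 4.79, 88.5 ± 24.1, 62.8 ± 9.61 and 24.8 ± 1.60 CPM, a 4.03-fold difference at 2 dpa (log2 change 2.01 ± 0.23) and a 2.86-fold difference at 3 dpa (1.52 ± 0.23). In order of level 2 dpa came first and then 3 dpa, whose libraries were apart by a narrow margin (71.25 and 70.2 CPM). The means of 10 dpa and 0 dpa differed by 0.18 ± 0.23 on the log2 scale, less than the SE. In bulk tissue a change of this kind cannot be split into more cells of a type and more RNA per cell.

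Nucleolin followed a flatter course with its highest level at 2 dpa. The uncut fin held ncl at 550.3, 476 and 699 CPM, the 2 dpa fin at 789, 756 and 1064 CPM. At 3 dpa the libraries were close together at 560.0, 549.95 and 541 CPM, and at 10 dpa they stood at 418, 359 and 484 CPM. All 2 dpa libraries lay above those of the other 3 stages. The 3 dpa libraries lay within the range of the uncut fin, and the 10 dpa libraries overlapped it at the lower end. The means were 575 ± 114, 869.7 ± 169, 550.2 ± 9.65 and 420.0 ± 62.5 CPM. Against the uncut fin the log2 change was 0.60 ± 0.22 at 2 dpa (1.51-fold), -0.06 ± 0.22 at 3 dpa and -0.45 ± 0.22 at 10 dpa. The 10 dpa level was 2.07-fold below that of 2 dpa. The coefficient of variation within a stage was 1.75% at 3 dpa and 14.9% to 19.8% at the other stages.

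Dyskerin transcripts stood high at 2 and 3 dpa alike, with wide scatter. DKC1 was at 6.56, 4.07 and 10.0 CPM in the uncut fin and at 14.5, 29.95 and 18.8 CPM at 2 dpa. It was at 16.5, 29.2 and 20.0 CPM at 3 dpa and at 6.94, 13.9 and 7.34 CPM at 10 dpa. The 2 and 3 dpa libraries overlapped each other and lay above all those of 0 and 10 dpa, which overlapped in turn. Stage means were 6.88 ± 2.98, 21.1 ± 7.96, 21.9 ± 6.54 and 9.38 ± 3.88 CPM. The difference from the uncut fin was 3.09-fold at 2 dpa (log2 change 1.63 ± 0.39) and 3.23-fold at 3 dpa (1.69 ± 0.39), and at 10 dpa the log2 change was 0.47 ± 0.39. DKC1 had the lowest counts of the 4 genes, from 47 in a library of the uncut fin, and its coefficient of variation within a stage ran from 29.9% to 43.4%.

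DDX21 took the opposite course. It stood at 171, 135 and 122 CPM in the uncut fin, at 38.04, 46.7 and 40.8 CPM at 2 dpa, and at 43.7, 44.3 and 35.4 CPM at 3 dpa. At 10 dpa it was at 49.8, 70.3 and 70.8 CPM. Every library of the cut fin lay below every library of the uncut fin, and the 10 dpa libraries lay above those of 2 and 3 dpa. The means were 143 ± 25.4, 41.9 ± 4.44, 41.1 ± 5.00 and 63.6 ± 12.0 CPM. DDX21 was 3.41-fold lower at 2 dpa (log2 change -1.77 ± 0.21), 3.47-fold lower at 3 dpa (-1.80 ± 0.21) and 2.25-fold lower at 10 dpa (-1.17 ± 0.20). Its 10 dpa mean was 44.5% of the uncut mean, and the 2 and 3 dpa groups overlapped.

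**Figure D1:**
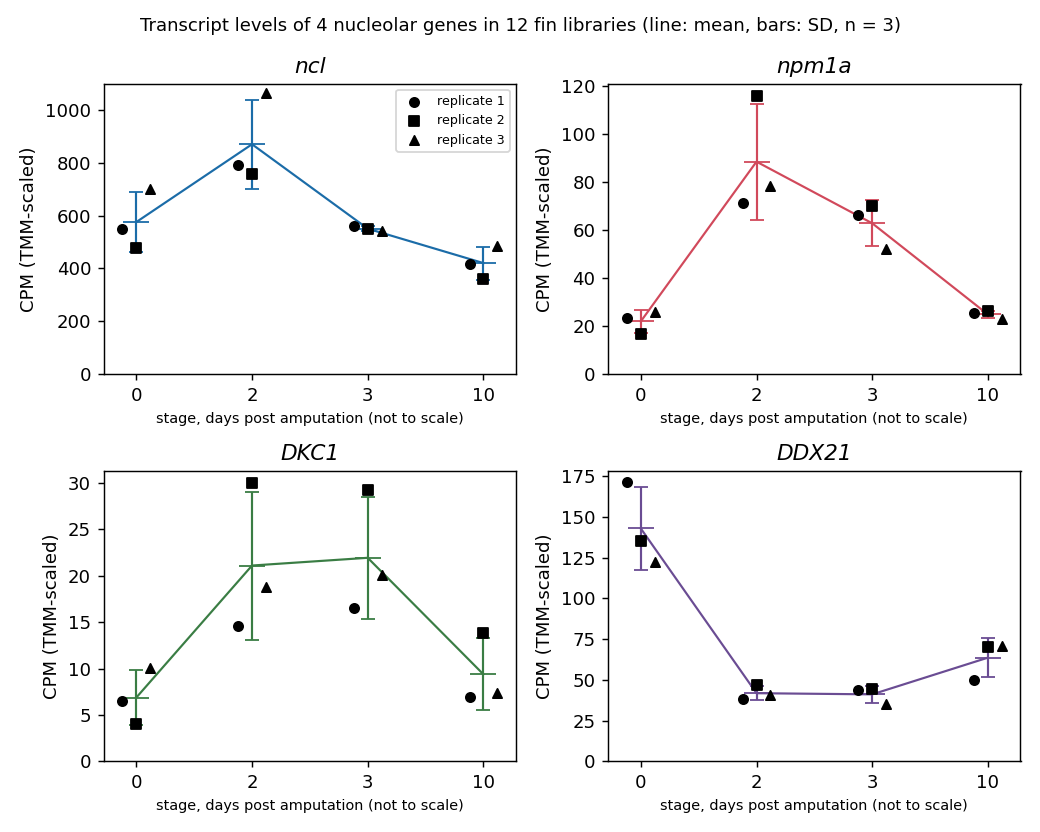
Level of ncl, npm1a, DKC1 and DDX21 in CPM (TMM-scaled, linear axis from 0) by stage, where each symbol is 1 library, dashes are stage means and bars are SD (n = 3). ncl and npm1a peak at 2 dpa, DKC1 stands at 21.1 and 21.9 CPM at 2 and 3 dpa, and DDX21 drops from 143 to 41.9 CPM and stands at 63.6 CPM at 10 dpa.

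At 2 dpa all 4 genes had libraries that did not overlap those of the uncut fin, 3 higher and 1 lower. Among all genes tested 54.6% did not overlap, 26.6% higher and 28% lower. At 3 dpa 3 of the 4 did not overlap the uncut fin, npm1a and DKC1 higher and DDX21 lower, where 56.4% of all genes did not, 29.7% higher and 26.8% lower. At 10 dpa 1 of the 4, DDX21, lay apart and lower (33.9% of all genes, 14.5% lower). Between 2 and 3 dpa 2 of the 4, ncl and npm1a, did not overlap, both lower at 3 dpa (18.3% of all genes, 6.51% lower). From 3 to 10 dpa all 4 lay apart, with ncl, npm1a and DKC1 lower and DDX21 higher (39.5% of all genes, 19.7% in each direction). From 2 to 10 dpa the directions were the same (41.7% of all genes, 18.4% lower and 23.2% higher). The genes were chosen for these differences, so nothing is read from the counts. By size, the npm1a change at 2 dpa exceeded that of 95.4% of genes tested, DKC1 that of 92.5% and ncl that of 71.7%, while 11.2% of genes had a lower value than DDX21. These ranks also follow from the choice of the genes, and nothing is read from them.

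The sample names carry a field, L01, L02 or L03, that follows the replicate number and whose meaning the labels do not spell out. Within these 3 sets the npm1a difference of 2 dpa from 0 dpa was 1.60, 2.79 and 1.59 on the log2 scale, and that of DKC1 was 1.13, 2.84 and 0.90. The corresponding values were 0.52, 0.67 and 0.60 for ncl and -2.17, -1.53 and -1.58 for DDX21. Each gene kept its direction in all 3 sets. This was fixed beforehand, since for each gene the 2 dpa libraries did not overlap those of 0 dpa. Nothing is read from the shared direction. The second set held the largest difference for npm1a and DKC1. In that set DKC1 and npm1a had their lowest uncut level and their highest levels at 2, 3 and 10 dpa. At 10 dpa the DKC1 difference was 0.08, 1.73 and -0.44, so its direction was not shared by the sets. Without replicate 2 of 2 dpa the log2 change at 2 dpa was 1.75 for npm1a and 1.27 for DKC1. Without replicate 2 of 3 dpa the log2 change at 3 dpa was 1.40 for npm1a and 1.40 for DKC1.

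**Figure D2:**
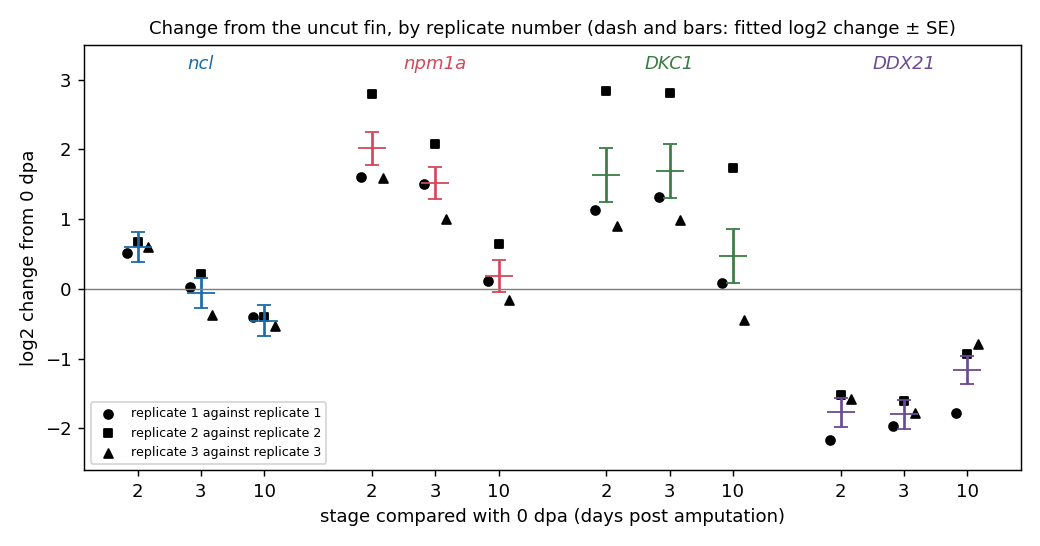
Log2 change from 0 dpa at 2, 3 and 10 dpa for each gene, where symbols are differences between libraries of the same replicate number and coloured dashes with bars are the fitted change ± SE. For npm1a and DKC1 the squares (replicate 2) lie highest at every stage, at 2.79 and 2.84 at 2 dpa, and all DDX21 values lie below 0.

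Among themselves npm1a and DKC1 were closest in course over the 12 libraries (Pearson r = 0.90 of log2 CPM). The libraries share their stages, and r of the deviations from stage means was 0.77. By r over the 12 libraries DKC1 ranked 488 of 13542 named genes in likeness to npm1a. Correlations of ncl were 0.65 with npm1a and 0.43 with DKC1, and those of DDX21 were -0.77, -0.73 and -0.28 with npm1a, DKC1 and ncl. Within stages DDX21 had r of 0.36 with npm1a and 0.30 with DKC1, of the other sign. For ncl the r within stages was 0.099 with npm1a, 0.071 with DKC1 and -0.185 with DDX21. These values are given as a description over libraries that differ by stage.

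The 5 genes most like each of the 4 held 1 gene of the ribosome biogenesis lists, WDR36. For npm1a the first was elavl1a (r = 0.98), which encodes an RNA-binding protein that stabilises mRNAs, followed by WDR36, a small-subunit assembly factor at 11.4, 24.7, 19.1 and 11.9 CPM over the 4 stages. PRPS1L1, the splicing factor PRPF8 and ABCF3 made up the rest of its first 5. For ncl the first was AQR (r = 0.96), an RNA helicase of the spliceosome. It was followed by UBR2, SNRNP200, another helicase of the spliceosome, cyp2ae1 and TFIP11. The first for DKC1 was PRMT6 (r = 0.99), an arginine methyltransferase at 4.43, 17.5, 17.6 and 6.19 CPM, and the second was DRG1, a GTPase. For DDX21 they were CRIM1 (r = 0.97), MSRB1 and the splicing factor SF3B1, which stood at 542, 246, 235 and 309 CPM. The lubricin gene prg4a, also among the first 5 for DDX21, stood at 932, 5.74, 3.62 and 56.8 CPM, so likeness in course here takes in changes of very unequal size.

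Other ribosome biogenesis genes were followed over the same stages. Of 110 such genes that passed the filter, without the 4 genes above, 54 rose and 6 fell at 2 dpa against the uncut fin (edgeR quasi-likelihood test, adjusted p under 0.05 over all genes). Over all 16612 genes 22.9% rose and 24.1% fell. The median log2 change of the 110 was 0.73, and that of all genes was 0.03. By stage means 83 of the 110 stood highest at 2 dpa (27.8% of all genes tested), 17 at 3 dpa, 10 in the uncut fin and 0 at 10 dpa. A difference among the 4 stages passed for 55 of them, 50.0% against 48.7% of all genes, a share near the background. Without replicate 2 of 0 dpa 32 rose and 3 fell (2914 and 3299 of all 16987 genes). Leaving out replicate 2 of 2 dpa gave 36 rises and 3 falls (3211 and 3824 of all 17007 genes). The median log2 change was then 0.56 (-0.02 for all genes). Leaving out replicate 1 of 2 dpa gave 56 rises and 3 falls (3649 and 3705 of all 17004 genes). Markers of dividing cells moved the same way: 17 of 18 rose at 2 dpa, with a median log2 change of 2.04 and a summed level of 245 to 431 CPM in the uncut fin and 997 to 1163 CPM at 2 dpa. Their part in the result was not tested.

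**Figure D3:**
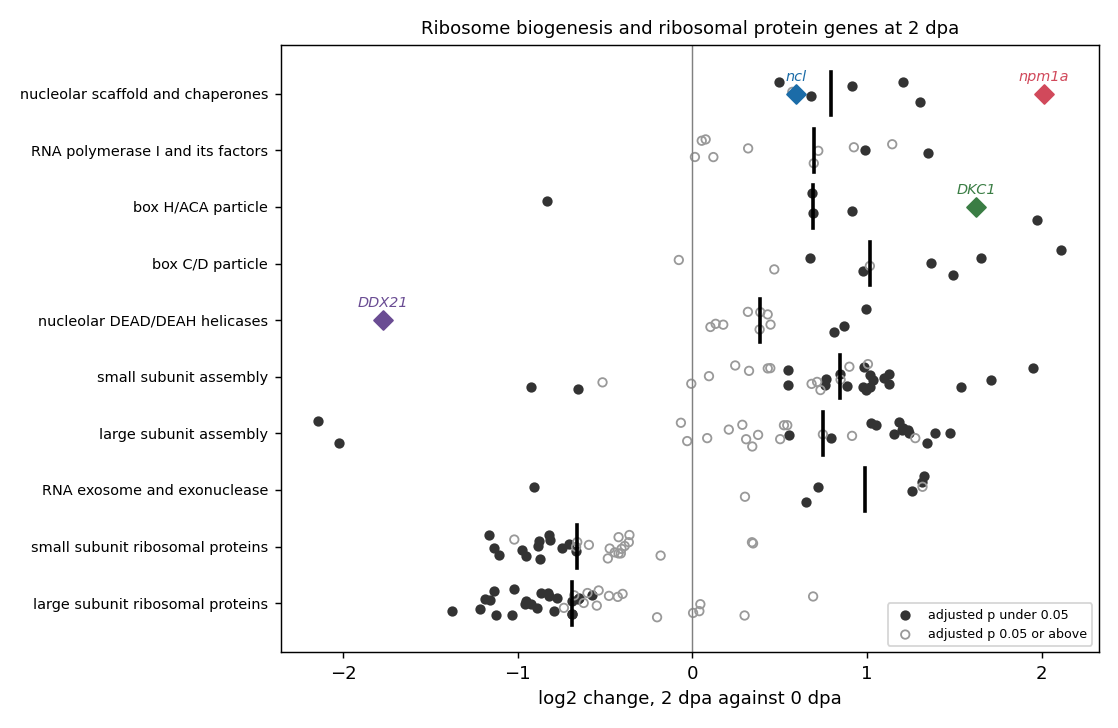
Log2 change at 2 dpa against 0 dpa of each tested gene in 8 lists of ribosome biogenesis genes and 2 lists of ribosomal proteins, where filled points passed an adjusted p under 0.05, open points did not, vertical bars are list medians without the 4 genes and diamonds are the 4 genes, given without a test. The 8 biogenesis medians lie above 0, both ribosomal protein medians lie below 0, and DDX21 lies at -1.77, apart from the 11 other helicases at 0.10 to 0.99.

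The box H/ACA particle holds dyskerin with its partner proteins. Of 5 of its other genes tested, 4 rose and 1 fell at 2 dpa (22.9% and 24.1% of all genes). GAR1, which binds dyskerin in the mature particle, rose from 6.77 ± 3.36 to 26.4 ± 19.4 CPM (edgeR adjusted p = 0.0157), although its 2 dpa libraries overlapped those of the uncut fin. The core protein NHP2 rose from 14.3 ± 2.72 to 23.1 ± 6.52 CPM at 2 dpa (edgeR adjusted p = 0.0278) and stood at 30.4 ± 4.74 CPM at 3 dpa. The assembly factor naf1, which holds the place of GAR1 in the immature particle, rose from 14.3 ± 0.786 to 23.1 ± 4.54 CPM (edgeR adjusted p = 0.0119). The nucleolar phosphoprotein nolc1, which binds these particles, rose from 153 ± 34.1 to 287 ± 50.9 CPM (edgeR adjusted p = 0.0168). The exception was SHQ1, the chaperone of free dyskerin, which fell from 3.07 ± 0.872 to 1.71 ± 0.349 CPM (edgeR adjusted p = 0.0432). At 3 dpa NHP2 and naf1 had risen, and the other 3 did not pass.

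The box C/D particle guides methylation of ribosomal RNA and is built by some of the same factors. Of its 9 tested genes, 6 rose and 0 fell at 2 dpa (0 lower at an unadjusted p under 0.05), with a median log2 change of 1.02. Among all genes 22.9% rose and 24.1% fell. The AAA+ ATPases RUVBL1 and RUVBL2 act together in assembling both kinds of particle. RUVBL2 rose from 4.42 ± 0.507 to 19.25 ± 4.10 CPM at 2 dpa (edgeR adjusted p = 1.01e-05) and stood at 15.9 ± 1.51 CPM at 3 dpa. Its partner RUVBL1 rose from 21.4 ± 5.76 to 67.2 ± 23.0 CPM (edgeR adjusted p = 5.48e-04). Fibrillarin (FBL), the methyltransferase, and NOP56 are named here for their roles after their values were seen. FBL rose from 46.0 ± 10.9 to 90.4 ± 13.1 CPM (edgeR adjusted p = 0.00330) and NOP56 from 24.4 ± 2.67 to 39.1 ± 7.89 CPM (edgeR adjusted p = 0.0193).

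Other nucleolar helicases, mostly of the DEAD and DEAH families, did not fall with DDX21. Of the 11 tested, 3 rose and 0 fell at 2 dpa (0 lower at an unadjusted p under 0.05), and their log2 changes ran from 0.10 to 0.99 with a median of 0.39. DDX55, a helicase of large-subunit assembly, rose from 8.99 ± 1.90 to 17.9 ± 4.59 CPM (edgeR adjusted p = 0.00354). DHX33 rose from 6.41 ± 1.63 to 11.7 ± 2.85 CPM (edgeR adjusted p = 0.0151). The other to rise was MTREX, the helicase that feeds RNA to the nuclear exosome, at 25.6 ± 5.27 and 44.9 ± 14.7 CPM (edgeR adjusted p = 0.0247). Like FBL and NOP56, MTREX is named here after its values were seen. The share that rose, 3 of 11, is close to the 22.9% of all genes.

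Most tested genes for nucleolar scaffold proteins, a paralog of npm1a among them, rose at 2 dpa. Of 6 tested scaffold genes other than ncl and npm1a, 5 rose and 0 fell (0 lower at an unadjusted p under 0.05). Among all genes 22.9% rose and 24.1% fell. The paralog npm1b rose from 17.95 ± 0.779 to 28.7 ± 2.91 CPM at 2 dpa (log2 change 0.68 ± 0.18, edgeR adjusted p = 0.00675) and stood at 31.3 ± 1.83 CPM at 3 dpa and 22.9 ± 3.88 CPM at 10 dpa. The oocyte nucleoplasmins npm2a and npm2b had 0 counts in every library. GNL3 (nucleostemin), a GTPase of the nucleolus of dividing cells, rose from 29.5 ± 10.5 to 68.0 ± 15.0 CPM (edgeR adjusted p = 0.00144). How the counting shared reads between npm1a and npm1b is not given.

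RNA polymerase I makes the ribosomal RNA on which the 4 proteins work. Of 11 tested genes for it and its factors, 2 rose and 0 fell at 2 dpa (3 higher and 0 lower at an unadjusted p under 0.05), and their median log2 change was 0.70. The share that rose, 18.2%, is near the 22.9% of all genes. POLR1C, a subunit shared with RNA polymerase III, rose from 7.48 ± 1.48 to 19.0 ± 13.6 CPM (edgeR adjusted p = 0.0270), and polr1e from 3.89 ± 0.576 to 7.71 ± 2.02 CPM (edgeR adjusted p = 0.0260). At 3 dpa 0 of the 11 passed in either direction, also at an unadjusted p under 0.05 in edgeR.

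Factors that build the small subunit rose in 18 of 33 genes and fell in 2 at 2 dpa (22.9% and 24.1% of all genes). PWP2, a scaffold of the early small-subunit particle, rose from 3.86 ± 1.46 to 14.8 ± 7.31 CPM (edgeR adjusted p = 0.00184), and IMP4, which binds the U3 small nucleolar RNA, from 4.76 ± 1.62 to 15.4 ± 8.77 CPM (edgeR adjusted p = 0.00234). The 2 that fell were PNO1, which acts late in small-subunit assembly, from 34.4 ± 2.50 to 18.2 ± 3.19 CPM (edgeR adjusted p = 0.00295), and NGDN, from 14.8 ± 2.68 to 9.45 ± 2.53 CPM (edgeR adjusted p = 0.0444).

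For the large subunit 13 of 29 assembly genes rose and 2 fell at 2 dpa (22.9% and 24.1% of all genes). NIP7 rose from 3.18 ± 0.318 to 8.33 ± 1.46 CPM (edgeR adjusted p = 0.00188) and MRTO4 from 0.605 ± 0.238 to 1.67 ± 0.569 CPM (edgeR adjusted p = 0.0150). The 2 that fell did so by more than the -1.77 of DDX21. GTPBP4, a GTPase of the pre-60S particle, fell from 1076 ± 204 to 244 ± 4.95 CPM (log2 change -2.14 ± 0.23, edgeR adjusted p = 1.01e-05) and stood at 254 ± 28.3 CPM at 3 dpa and 446 ± 107 CPM at 10 dpa. NSA2, which acts on the same particle, fell from 182 ± 28.8 to 44.7 ± 7.63 CPM (log2 change -2.02 ± 0.28, edgeR adjusted p = 6.37e-05) and stood at 62.7 ± 17.1 and 108 ± 35.2 CPM at 3 and 10 dpa. In both, as in DDX21, the 2 dpa libraries lay below all libraries of the uncut fin and of 10 dpa.

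Subunits of the RNA exosome, which trims ribosomal RNA ends, and related nucleases rose in 5 of 8 genes and fell in 1 at 2 dpa. Among all genes 22.9% rose and 24.1% fell. EXOSC6 rose from 9.62 ± 3.35 to 23.8 ± 3.78 CPM (edgeR adjusted p = 6.64e-04) and EXOSC9 from 3.94 ± 0.930 to 9.86 ± 2.80 CPM (edgeR adjusted p = 0.00586). EXOSC1 fell from 12.8 ± 1.74 to 6.83 ± 3.07 CPM (edgeR adjusted p = 0.0202).

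Ribosomal protein genes encode the parts that the nucleolus assembles. Of 68 tested, 0 rose, 36 fell and 32 did not pass at 2 dpa (edgeR, 0 higher at an unadjusted p under 0.05 and 0 by DESeq2), against 22.9% and 24.1% of all genes, with a median log2 change of -0.68 and a range from -1.38 to 0.69. RPS28 fell from 228 ± 28.3 to 106 ± 8.16 CPM (edgeR adjusted p = 2.62e-04) and rps27.2 from 857 ± 92.9 to 382 ± 70.6 CPM (edgeR adjusted p = 8.46e-04). With wider scatter, RPS26 fell from 1181 ± 81.8 to 538 ± 206 CPM (edgeR adjusted p = 0.0168). Among large-subunit proteins rpl32 fell from 7985 ± 777 to 3438 ± 359 CPM (edgeR adjusted p = 0.00317) and RPL22 from 650 ± 116 to 251 ± 102 CPM (edgeR adjusted p = 0.0182). By stage means 57 of the 68 stood lowest at 2 dpa (27.4% of all genes) and 49 highest in the uncut fin (33.2%). Summed over the large-subunit list, the level was 69487 to 73480 CPM in the uncut fin and 38986 to 41686 CPM at 2 dpa. How the counting treated reads that match more than 1 gene copy is not given, so counts of single ribosomal protein genes are uncertain.

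At 3 dpa npm1a and DKC1 stood above the uncut fin and ncl overlapped it. Of the 110 biogenesis genes, 31 rose and 4 fell (22.8% and 21.3% of all genes), with a median log2 change of 0.59. Without replicate 2 of 0 dpa 19 rose (2921 of all 16987 genes), with a median log2 change of 0.45 (0.06 for all genes). Without replicate 2 of 3 dpa 20 rose (2964 of all 16984 genes), with a median of 0.35 (0.007 for all genes). In both runs the share that rose was near that of all genes. Of the ribosomal protein genes 0 rose and 16 fell (edgeR, 0 higher at an unadjusted p under 0.05 and 0 by DESeq2). In this fit 23.5% is near the 21.3% of all genes that fell. In other fits the share lay above that of all genes. DESeq2 gave 29 falls (3954 of all 16612 genes), and a fit of 0 and 3 dpa alone gave 25 (3747 of 15649). A fit with the replicate number as a further term gave 31 (3953 of 16612). Leaving out replicate 1 or 2 of 0 dpa gave 10 falls (2980 of 16972 and 2814 of 16987 genes). Leaving out replicate 2 of 3 dpa gave 9 (2956 of 16984). Dividing-cell markers again rose in 17 of 18, with a median of 2.04 and a sum of 1008.5 to 1257 CPM, and their part was not tested.

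Between 2 and 3 dpa, where ncl and npm1a stood lower and DKC1 and DDX21 overlapped, no biogenesis gene passed in either direction in edgeR (0 higher and 4 lower at an unadjusted p under 0.05, and 0 higher and 2 lower by DESeq2). Over all genes 3.28% rose and 0.494% fell. No ribosomal protein gene passed either (4 higher and 0 lower at an unadjusted p under 0.05).

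At 10 dpa ncl, npm1a and DKC1 overlapped the uncut fin and DDX21 stood below it. Of the 110 biogenesis genes, 0 rose and 1 fell against the uncut fin (1 higher and 9 lower at an unadjusted p under 0.05 in edgeR, and 0 higher and 3 lower by DESeq2), where 6.62% of all genes rose and 2.78% fell. The 1 that fell was GTPBP4 (log2 change -1.27 ± 0.22, edgeR adjusted p = 0.00461). Without replicate 2 or replicate 3 of 2 dpa, which enter the shared estimate of spread, 2 fell (838 of 17007 and 570 of 17047 genes). The median log2 change was -0.03, and with scaling by library totals, which moves the median of all genes to 0.13, it was 0.07. Of the ribosomal protein genes 0 passed in either direction (0 higher and 7 lower at an unadjusted p under 0.05, 6 lower by DESeq2 and 2 lower without replicate 2 of 2 dpa). With the replicate number as a further term, 8 ribosomal protein genes and 4 biogenesis genes were lower (868 of all 16612 genes). Of the dividing-cell markers 11 of 18 rose at 10 dpa, with a median log2 change of 1.70 and a sum of 774 to 850.5 CPM.

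From 2 to 10 dpa 50 of the 110 biogenesis genes fell and 2 rose (12.2% and 17.8% of all genes). The 2 that rose were NSA2 (log2 change 1.27 ± 0.27, edgeR adjusted p = 0.00304) and GTPBP4 (0.87 ± 0.22, edgeR adjusted p = 0.00934), and DDX21 differed by 0.60 ± 0.20 in the same direction. Without replicate 1 of 10 dpa 32 fell (1468 of all 16973 genes), and without replicate 2 of 2 dpa 34 fell (1978 of 17007). Without replicate 3 of 10 dpa 33 fell and 1 rose (1395 and 2508 of all 17025 genes). From 3 to 10 dpa 25 fell and 1, GTPBP4, rose (8.25% and 11.3% of all genes). No biogenesis gene rose without replicate 1 or 2 of 3 dpa or replicate 3 of 10 dpa (edgeR, 2 higher at an unadjusted p under 0.05 with all libraries and 2 by DESeq2). Without replicate 1 of 10 dpa or replicate 2 of 2 dpa 2 rose. The falls numbered 9 to 14 without replicate 1 or 2 of 3 dpa or any 1 replicate of 10 dpa. In those runs 742 to 943 of all genes fell. In a fit of 2 and 10 dpa alone 32 biogenesis genes fell (1359 of all 15819 genes). Of the ribosomal protein genes 14 rose from 2 to 10 dpa, 20.6% against 17.8% of all genes, and 0 fell (0 lower at an unadjusted p under 0.05 and 0 by DESeq2). In a fit of these stages alone 1 rose (2399 of all 15819 genes). Between 1 and 8 rose without replicate 1 or 3 of 2 dpa, replicate 3 of 3 dpa, any 1 replicate of 10 dpa or replicate 1 or 2 of 0 dpa. In those runs 2508 to 2942 of all genes rose. Without replicate 2 of 2 dpa 22 rose (3077 of all 17007 genes).

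**Figure D4:**
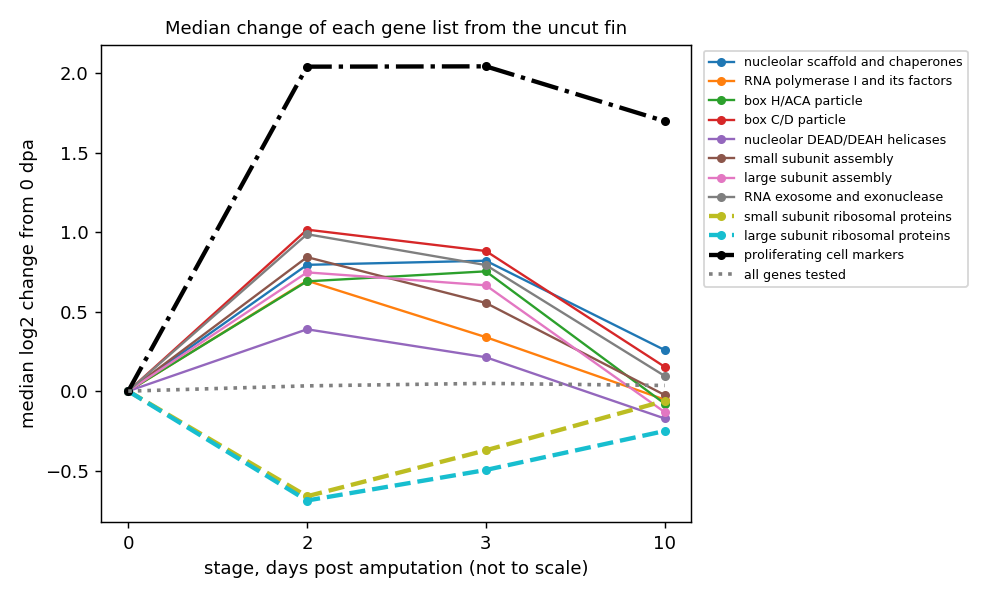
Median log2 change from 0 dpa of each gene list at 2, 3 and 10 dpa (the 4 genes left out; stages not to scale), with all genes tested as a dotted line. Biogenesis medians lie at 0.39 to 1.02 at 2 dpa and at -0.17 to 0.26 at 10 dpa, the ribosomal protein medians lie at -0.69 and -0.66 at 2 dpa and at -0.25 and -0.06 at 10 dpa, and markers of dividing cells stay at 1.70 at 10 dpa.

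MYC proteins are transcription factors known to act on nucleolar genes, npm1, ncl and dkc1 among them, in mammals. Of 11 tested genes of the MYC family and its partners, 2 rose and 2 fell at 2 dpa, close to the 22.9% and 24.1% of all genes. The symbol MYC stands for 2 identifiers with opposite courses. One, ENSDARG00000045695, stood at 14.7 ± 2.43, 47.0 ± 17.8, 61.1 ± 8.78 and 21.3 ± 1.54 CPM over the 4 stages, and rose at 2 dpa (log2 change 1.68 ± 0.26, edgeR adjusted p = 1.77e-04). The other, ENSDARG00000007241, stood at 114 ± 20.1, 38.8 ± 14.7, 48.8 ± 23.7 and 141 ± 28.2 CPM, and fell at 2 dpa (log2 change -1.55 ± 0.36, edgeR adjusted p = 0.00326). Of the antagonists that compete for the shared partner MAX, MXI1 rose from 104 ± 18.5 to 178 ± 41.7 CPM (edgeR adjusted p = 0.00955) and MNT fell from 26.3 ± 3.46 to 8.93 ± 2.79 CPM (edgeR adjusted p = 0.00160). MAX itself stood at 85.1 ± 4.53 and 85.4 ± 9.77 CPM and MYCN at 35.4 ± 4.56 and 46.4 ± 1.97 CPM, and neither passed.

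In telomerase dyskerin binds the RNA subunit, and TERT is the catalytic subunit. TERT fell from 7.15 ± 2.72 to 3.09 ± 0.115 CPM at 2 dpa (edgeR adjusted p = 0.0106), stood at 3.38 ± 1.202 CPM at 3 dpa and was back at 7.32 ± 1.29 CPM at 10 dpa. Of the 6 tested genes of this list 1 rose, the telomere-binding POT1 from 2.78 ± 0.608 to 7.44 ± 1.17 CPM (edgeR adjusted p = 0.00126). The shares that rose and fell, 16.7% and 33.3% of 6 genes, are not far from the 22.9% and 24.1% of all genes. Besides TERT the telomerase inhibitor PINX1 fell, from 10.9 ± 1.298 to 6.68 ± 0.438 CPM (edgeR adjusted p = 0.0138). WRAP53, which brings telomerase to the Cajal body, stood at 14.8 ± 1.54 and 15.4 ± 4.44 CPM and did not pass.

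Markers of the tissues in the fin also moved between stages, and their part in the courses of the 4 genes was not tested. Summed levels, here and for the dividing-cell markers, take in every matched gene of a list, also those that did not pass the filter. The counts at 2 dpa below stand beside 22.9% of all genes that rose and 24.1% that fell. Of 11 epidermis markers 0 rose and 5 fell at 2 dpa, and their summed CPM ran from 66810 to 87159 in the uncut fin, from 42217 to 67145 at 2 dpa, from 29133 to 29713 at 3 dpa, and from 52430 to 62150 at 10 dpa. Of 15 leukocyte markers 2 rose and 6 fell at 2 dpa, and their sum, most of it from cd74a and cd74b, ran in CPM from 16306 to 18109 in the uncut fin, from 2185 to 3141 at 2 dpa, from 3191 to 6128 at 3 dpa, and from 5658 to 10670 at 10 dpa. Of 11 mesenchyme and bone markers 4 rose and 0 fell at 2 dpa, and their summed CPM, from 6603 to 28063 in the uncut fin, overlapped that at 2 dpa, from 23635 to 48537, and ran from 62018 to 77297 at 3 dpa and from 54940 to 67687 at 10 dpa. Erythrocyte and skeletal muscle markers summed to at most 68.9 and 144 CPM in any library.

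In the RefSeq annotation of GRCz12tu, where they were found by symbol alone, the 4 genes lie on 4 different chromosomes. Within ncl lie 2 small nucleolar RNA genes and within DKC1 5, 1 long noncoding gene overlaps DKC1, and npm1a overlaps 1 long noncoding and 1 protein-coding gene. DDX21 overlaps no gene of these 3 classes, and other classes were not looked at. Whether reads of overlapping genes entered the counts was not tested, since neither the annotation counted on nor its handling of strand is given. Of the 8 neighbouring genes tested, 3 rose, 3 fell and 2 did not pass at 2 dpa (edgeR, 22.9% and 24.1% of all genes), and no neighbour of npm1a had a tested match. Beside DKC1 tmlhe rose from 4.51 to 11.6 CPM (edgeR adjusted p = 0.00216) and pdlim4 from 28.8 to 46.9 CPM (edgeR adjusted p = 0.0217), while csf1rb fell from 2.61 to 0.457 CPM (edgeR adjusted p = 1.67e-04). Beside ncl polr2h rose from 0.717 to 3.24 CPM (edgeR adjusted p = 0.00594), and b3gnt7, at 2.82 and 1.44 CPM, did not pass. Beside DDX21 si:ch1073-291c23.2 fell from 21.0 to 6.30 CPM (edgeR adjusted p = 0.00852) and irf1a from 2.17 to 0.970 CPM (edgeR adjusted p = 0.0355), and chs1, at 1.71 and 0.871 CPM, did not pass.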

How the data were processed

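The authors deposited raw counts of reads per Ensembl gene, 1 column per library, per the file headers. Per the labels' protocols RNA was extracted with a column kit without carrier RNA, and libraries came from the Lexogen SENSE mRNA-Seq kit, read on a SOLiD Wildfire. The aligner, the counter, the build, the annotation and the strand setting are not given, so genes with paralogs or with overlapping or antisense partners have uncertain counts. Columns were matched to samples by the column name in the labels. A gene name table gave symbols for 21939 of 33737 identifiers. Symbols in capitals are those of the human gene and leave the zebrafish paralog unnamed.

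Counts were fitted with edgeR (version 4.0.16, R version 4.3.3): TMM, filterByExpr at a count minimum of 10, robust quasi-likelihood fit of all 12 libraries with stage as the only term, Benjamini-Hochberg adjustment over 16612 genes, threshold 0.05, in 6 comparisons of 2 stages and an F test. The biological coefficient of variation was 26.9%. SE is the log2 change divided by the square root of F. Log2 CPM for correlations used a prior count of 2. P-values set a stage difference against the spread between pools of a stage, which also takes in any difference between the L01, L02 and L03 sets. Total counts per library (8833337 to 22843743) limit the precision of low genes.

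The 4 genes, the gene lists and the tests were chosen with earlier results of these data known. Lists came from general knowledge: of 152 biogenesis genes written 118 matched, 4 of them by an alias, and 2 stand on more than 1 list. From each list were named the 2 largest rises and falls against 0 dpa that passed, if the higher group had 10 counts or more throughout and the groups were apart, and, besides, all genes of the H/ACA, MYC and telomerase lists, relatives of npm1a and the 5 genes most like each of the 4. Not all are printed, and 1 further list is not reported here. Alternatives were RLE scaling, no filter, a replicate block, DESeq2 (version 1.42.0), fits of just the compared stages, each library left out in turn and, added after seeing the data, scaling by library totals.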

Additional observations from a re-analysis of the deposited data

How the results depend on the processing

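The log2 changes of ncl, npm1a, DKC1 and DDX21 in all 6 comparisons moved by less than the spread between replicates under every alternative run. For the runs without 1 library this was close to fixed beforehand, since removing 1 of 3 libraries shifts a stage mean by less than that spread. Nothing is read from it for those runs. The other alternatives refitted the same counts, so small moves were likely there too, and nothing is read from those either. Leaving out 1 library in turn, the change at 2 dpa ran from 0.43 to 0.76 for ncl, 1.75 to 2.15 for npm1a, 1.27 to 1.99 for DKC1 and -1.87 to -1.62 for DDX21, while ncl at 3 dpa ran from -0.18 to 0.10 and DKC1 at 10 dpa from 0.05 to 0.83. The counts of other genes moved more. Against 0 dpa, the replicate block gave 31 ribosomal protein genes lower at 3 dpa, and 8 of these genes and 4 biogenesis genes lower at 10 dpa. The compared stages alone gave 25, 2 and 2 for these counts, DESeq2 gave 29, 6 and 3, and RLE scaling gave 2 biogenesis genes lower at 10 dpa. Among all 16612 genes, 3953 and 868 were lower at 3 and 10 dpa with the block and 3954 and 997 with DESeq2. With RLE scaling 552 were lower at 10 dpa. The compared stages alone gave 3747 of 15649 and 869 of 15797. From 2 to 10 dpa, ribosomal protein genes higher numbered 9 with RLE scaling, 6 with no filter, 29 with the block, 1 with the compared stages alone and 5 with library totals. All genes higher numbered 2872, 2890 (of 26138), 3270, 2399 (of 15819) and 2804 in the same order. Biogenesis genes lower numbered 32 with the compared stages alone (1359 of all 15819 genes). From 3 to 10 dpa, biogenesis genes higher numbered 2 with no filter, the block or DESeq2, and ribosomal protein genes higher numbered 0 with no filter or library totals and 4 with the block or DESeq2. In that comparison all genes higher numbered 1806 with no filter, 2159 with the block, 2211 with DESeq2 and 1906 with library totals. From 2 to 3 dpa DESeq2 gave 2 biogenesis genes lower (229 of all 16612 genes). The block gave 42 ribosomal protein genes in the F test, where 26 of 68 passed without it (38.2%, against 48.7% of all genes). No label says that a shared replicate number is a shared source, so the block was not used for the results. Deviations from stage means had a median r of 0.119 over 18 pairs of libraries sharing a number (-0.225 to 0.478, above 0.1 in 11). Over the other 36 pairs it was -0.0442 (-0.381 to 0.231, above 0.1 in 4). For 9 of 12 libraries the best partner had the same number, a hint from the data. The value of that count by chance was not worked out. The cause of these moves was not tested.

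Leaving out each library in turn, biogenesis genes higher and lower numbered 32 to 56 and 3 to 6 at 2 dpa, and 19 to 35 were higher at 3 dpa and 1 to 2 lower at 10 dpa. From 3 to 10 dpa 0 to 2 were higher and 9 to 29 lower, and from 2 to 10 dpa 1 to 2 were higher and 32 to 51 lower. The numbers of all genes moved too. At 2 dpa 2914 to 3800 were higher, and at 3 dpa 2921 to 3999 were higher and 2814 to 3970 lower. From 3 to 10 dpa 742 to 1651 were lower, and from 2 to 10 dpa 2508 to 3077 were higher and 1395 to 2033 lower. A move in a count is thus not by itself a move against all genes. Ribosomal protein genes lower numbered 9 to 24 at 3 dpa and 0 to 2 at 10 dpa, those higher 0 to 2 from 3 to 10 dpa and 1 to 22 from 2 to 10 dpa, and 13 to 28 passed the F test, 13 without replicate 2 and 16 without replicate 1 of 0 dpa. From 3 to 10 dpa the ribosomal protein genes higher numbered 2 without replicate 2 of 2 dpa, 1 without replicate 1 or 3 of 2 dpa and 0 without any other library. Scaling by library totals moved the median of all genes at 2, 3 and 10 dpa to 0.15, 0.11 and 0.13 on the log2 scale, from 0.03, 0.05 and 0.04, and that of the biogenesis genes at 2 dpa to 0.87. DKC1 had at least 47 counts in every library, and its spread between pools, 29.9% to 43.4%, limits what its differences can show.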
